A study of Mus musculus with 4 samples.

Results

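Heat shock genes are described here across the cell classes of the mouse brain after transient middle cerebral artery occlusion (tMCAO), which blocks a brain artery and then reopens it. The 10 genes, of 31053 in the files, are Hspa1a, Hspa1b, Hspa8, Hsp90aa1, Hsph1, Dnajb1, Hspb1, Hspd1, Hspe1 and Hspa5. They were chosen by symbol, with earlier results of these data known, so the levels and ratios below are descriptions without a test. Hspa1a and Hspa1b are also given as a sum, because reads of these near-identical genes can be split between them.

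The 4 libraries came from a sham-operated group and from tMCAO groups at day 1, day 3 and day 7, all from male mice of 8 weeks, and the methods name the strain as C57/BL6. The ipsilateral hemisphere was digested with papain, myelin was removed on Percoll, and cells were captured for 10x Genomics 3′ single-cell RNA-seq, which counts unique molecular identifiers (UMIs). Each group was 1 library, the number of mice in it was not stated, and the design text places the sham library at day 7. The labels name no genetic change in any group, and every cell, sham included, went through warm enzymatic digestion. Because each day was 1 library, day and library cannot be told apart, and no difference between them was tested. Ratios carry exact 95% intervals that cover counting error only.

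Heat shock proteins are chaperones that hold, refold or pass on unfolded proteins. Cytosolic HSP70 and HSP90 proteins work in ATP-driven cycles with J-domain partners and exchange factors, small heat shock proteins hold unfolded clients without ATP, and mitochondria and the endoplasmic reticulum have chaperones of their own. Some members are made constantly, whereas others are switched on by heat shock factor 1 when unfolded proteins build up, as they do in ischemic brain, and genes of the same response are also known to be switched on in cells during warm enzymatic digestion.

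Sequence upstream of the gene starts is shown first, to set the inducible members side by side. RefSeq windows (GRCm38.p6) were found for 8 of the 10 members. Hspa8 and Hsp90aa1 are named only. The binding site of heat shock factors is built of repeated nGAAn blocks, and a heat shock pair was searched as GAANNTTC or TTCNNGAA on both strands, a triple as GAA, TTC and GAA or as TTC, GAA and TTC with 2 free bases between blocks, so that every triple also holds pairs. In windows of 300 bases a pair was in 15.1% of 32851 windows and a triple in 0.603%. Shown 5′ to 3′ on the gene's strand, with heat shock pairs in capitals, are the 250 bases before the start of Hspa1a (chr17:34972157-34972406, minus strand), Hspa1b (chr17:34959239-34959488, minus strand) and Hspb1 (chr5:135887669-135887918, plus strand), the members with the steepest differences between libraries or between classes.
Hspa1a: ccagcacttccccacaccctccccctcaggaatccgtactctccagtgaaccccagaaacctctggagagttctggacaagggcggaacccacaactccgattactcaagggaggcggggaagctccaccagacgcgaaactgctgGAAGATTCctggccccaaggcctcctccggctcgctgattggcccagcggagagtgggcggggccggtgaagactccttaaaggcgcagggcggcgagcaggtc
Hspa1b: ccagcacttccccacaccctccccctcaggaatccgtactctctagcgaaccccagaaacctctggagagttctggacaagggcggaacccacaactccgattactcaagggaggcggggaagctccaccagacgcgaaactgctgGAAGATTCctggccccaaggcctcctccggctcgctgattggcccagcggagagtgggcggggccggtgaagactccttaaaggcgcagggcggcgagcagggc
Hspb1: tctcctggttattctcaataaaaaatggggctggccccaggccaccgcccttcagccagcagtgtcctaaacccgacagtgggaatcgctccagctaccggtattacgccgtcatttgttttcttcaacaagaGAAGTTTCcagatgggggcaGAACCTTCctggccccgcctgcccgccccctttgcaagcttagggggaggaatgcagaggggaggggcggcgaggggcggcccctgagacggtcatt

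The Hspa1a and Hspa1b windows differed at 3 of 250 bases (98.8% identical), and their starts lay 12918 bases apart. Both held the same pair, GAAGATTC, at bases -104 to -97 from the start, and Hspb1 held 2 pairs, at -117 to -110 and at -97 to -90. For 3 further members the 30 bases around the motif are shown. Positions count from the RefSeq start, which for Hsph1 and Hspa5 lies inside the gene span given with their values, from GRCm38 gene models, so that both motifs fall within that span. They are a pair of Hsph1, 2 overlapping triples of Hspe1 and the endoplasmic reticulum stress element of Hspa5. The Hsph1 bases are chr5:149636351-149636380 (minus strand), with the pair at -33 to -26. The Hspe1 bases are chr1:55088053-55088082 (plus strand), with the triples at -89 to -77 and at -84 to -72. The Hspa5 bases are chr2:34772020-34772049 (plus strand), with the element at -65 to -47. This element was searched as CCAAT and CCACG with 9 free bases between them on both strands and found in 0.119% of windows. Capitals mark the motif.
Hsph1: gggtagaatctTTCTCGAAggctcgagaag
Hspe1: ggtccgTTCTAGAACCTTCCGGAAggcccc
Hspa5: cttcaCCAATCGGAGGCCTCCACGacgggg

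Hsph1 also held a triple after its start, at bases 36 to 48, with the 2 pairs that make it up. The Hspe1 triples lie before the start of Hspe1 and within the annotated span of Hspd1, which runs the other way from an overlapping start. The window of Hspd1 that reaches them held the same stretch on the other strand. The Dnajb1 windows held no heat shock pair, which says only that these letters were not in them. A match is a description and not a measured site.

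Deposited libraries held 69392755 to 104023002 UMIs in 11744 to 17922 cells, and 7562 to 14044 cells passed the study's stated limits (200 to 3000 genes and no more than 10% mitochondrial UMIs). The study reports more cells after its quality control in every group, so the cells kept here are not the same set. Cells were assigned to a class where its markers clearly led all others, which placed 89.4% to 92.6% of kept cells, and classes are called "-like" because the authors' cell names were not used and differences from the study may come from that. In all 18 classes the 10 leading genes included markers of the class and none of another class, and 2.08% to 2.98% of kept cells lay near the assignment limit. Median depth was 3731.5 UMIs in the sham library and 2507.5 to 2896.5 UMIs in the tMCAO libraries, and 12 to 50 cell barcodes were shared by any pair of libraries (0.159% to 0.395% of the smaller library's cells).

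Hspa1a (chr17:34969190-34972156, reverse strand, GRCm38) and Hspa1b (chr17:34956436-34959238, reverse strand) encode the stress-inducible cytosolic HSP70. Over all kept cells, their summed level was 277 CPM (UMIs per 1000000 UMIs of the cells summed) in the sham library, 1251 at day 1, 1546 at day 3 and 348 at day 7. Days 1 and 3 were 4.51 (4.41 to 4.61) and 5.57 (5.45 to 5.70) times the sham level, and day 7 was 1.25 (1.22 to 1.29) times it. Here and below, genes were counted as past 2-fold with 10 CPM added to both levels. Over all kept cells, Hspa1a and Hspa1b were the 2 members past 2-fold at day 1 and at day 3, where 4.28% and 1.7% of all genes passed in either direction, and 0 members passed at day 7, where 1.17% of genes did. The day 1 and day 3 libraries thus stood high and the sham and day 7 libraries low.

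Endothelial-like cells, the largest class with 4691 to 8952 cells per library, held most of these UMIs. Their Hspa1a and Hspa1b level was 352 CPM (343 to 361) in sham, 2371 CPM (2348 to 2394) at day 1, 2496 CPM (2472 to 2521) at day 3 and 433 CPM (425 to 442) at day 7. The ratios to sham were 6.74 (6.55 to 6.93), 7.09 (6.90 to 7.30) and 1.23 (1.19 to 1.27). Days 1 and 3 were close to each other and day 7 was close to sham. Of the 10 members, 2 were past 2-fold at day 1, 2 at day 3 and 0 at day 7, beside 2.79%, 2.09% and 1.02% of all genes. When genes were ordered by their ratio, with 10 CPM added to both levels, Hspa1b was number 2 and Hspa1a number 3 of 6887 genes at day 1, and numbers 7 and 13 of 6977 at day 3.

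**Figure D1:**
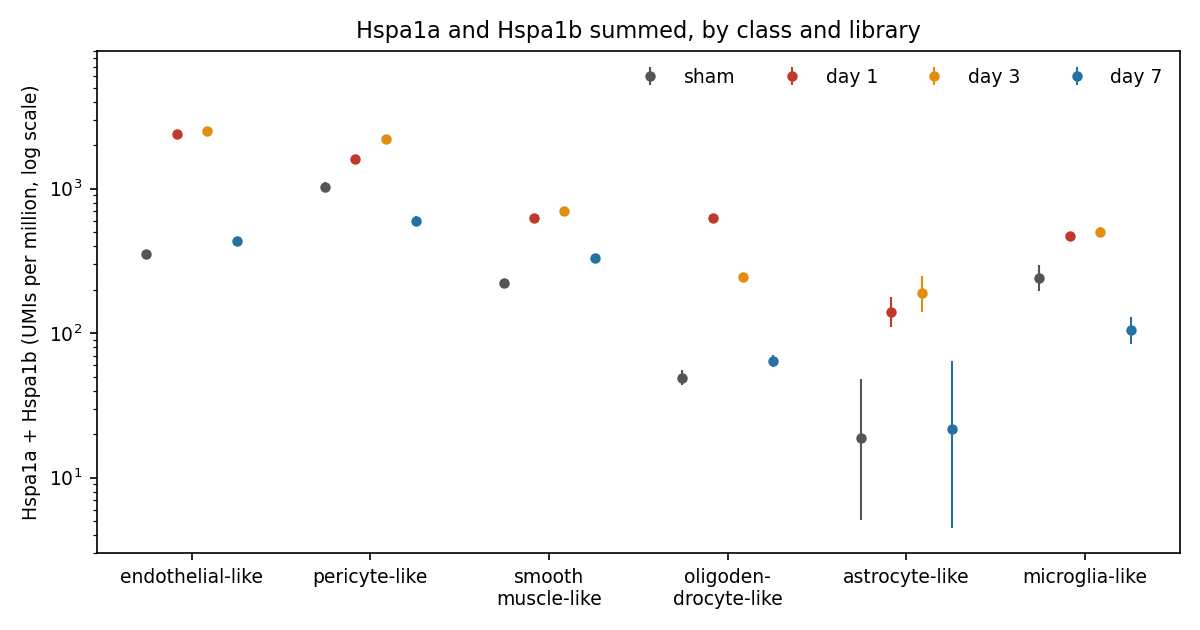
Summed Hspa1a and Hspa1b level (CPM, log axis) in 6 classes and 4 libraries, with bars for exact 95% Poisson intervals (counting error only). The endothelial-like points of days 1 and 3 (2371 and 2496 CPM) lie highest, and the oligodendrocyte-like points run from 49.1 CPM in sham to 622 CPM at day 1.

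Mural cells, which wrap the vessels, were different at baseline. Pericyte-like cells had the highest sham level of any class, 1025 CPM, with 1599 CPM at day 1, 2219.5 CPM at day 3 and 598 CPM at day 7. Their ratios to sham were 1.56 (1.43 to 1.71), 2.17 (1.99 to 2.36) and 0.58 (0.52 to 0.65). Day 7 was thus below sham in this class, whereas it was above sham in endothelial-like cells. Vascular smooth muscle-like cells stood at 222, 628, 704 and 333 CPM in sham and at days 1, 3 and 7, with ratios of 2.83 (2.62 to 3.05), 3.17 (2.96 to 3.40) and 1.498 (1.39 to 1.61). Their median mitochondrial share was 4.78% to 6.76%, and with at most 5% mitochondrial UMIs the 3 ratios were 1.16, 1.76 and 0.989. The size of the day 1 and day 3 differences thus depended on this limit, day 1 coming near sham, and the day 7 direction turned. At the stated limit, pericyte-like cells had 1, 1 and 0 members past 2-fold (Hspa1b each time), beside 3.66%, 1.49% and 3.24% of all genes, and vascular smooth muscle-like cells had 2, 2 and 0 (Hspa1a and Hspa1b), beside 2.02%, 0.256% and 1.23%.

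Oligodendrocyte-like cells, the myelin-forming class, had 49.1 CPM in sham, 622 CPM at day 1, 245 CPM at day 3 and 64.4 CPM at day 7. The ratios were 12.7 (11.2 to 14.3), 4.99 (4.38 to 5.70) and 1.31 (1.13 to 1.53). Over all cells of the class, day 1 stood well above day 3, whereas in endothelial-like cells both days were near the same level. In endothelial-like cells the order of days 1 and 3 turned with cell depth, as given with the levels by depth. In oligodendrocyte-like cells day 1 was above day 3 in each depth range given, with overlapping intervals between 2000 and 4000 UMIs. The number of members past 2-fold was 4 at day 1 (Hspa1a, Hspa1b, Dnajb1 and Hspb1), 2 at day 3 (Hspa1a and Hspa1b) and 1 at day 7 (Hsph1), beside 2.12%, 0.351% and 1.61% of all genes. The day 1 level in oligodendrocyte-like cells was 26.2% of the endothelial-like level, against 13.9% in sham, 9.81% at day 3 and 14.9% at day 7. In oligodendrocyte-like cells without a single UMI of the 8 endothelial markers, a subset chosen after the data were seen, the levels were 32.9, 622, 225 and 62.1 CPM, and in those with such a UMI 65.2, 621, 260 and 67.0 CPM. The day 1 value was thus nearly the same in both sets of cells, whereas the sham value was 32.9 CPM without and 65.2 CPM with such a UMI. What part endothelial transcripts had in these values was not tested.

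Astrocyte-like cells gave only 4, 70, 50 and 3 Hspa1a and Hspa1b UMIs in sham and at days 1, 3 and 7, or 18.7, 140.5, 189 and 21.8 CPM. The ratios of 7.50 (2.80 to 28.3), 10.1 (3.71 to 38.5) and 1.17 (0.17 to 6.90) have wide intervals. With classes taken from clustering they were 73.4, 3.66 and 10.5. At day 1 the level was 235 CPM in the 76 cells with an endothelial marker UMI and 56.7 CPM in the 135 cells without one, and at day 3 it was 99.6 and 307 CPM, the part of endothelial transcripts not being tested. Past 2-fold in either direction were 3 members at day 1 (Hspa1a, Hspa1b and Hspb1, higher), 4 at day 3 (Hspa1a, Hspa1b and Dnajb1 higher, Hspb1 lower) and 1 of the 8 measured at day 7 (Hsph1, lower), beside 13.6%, 17.2% and 20.6% of all genes. Shares this large among all genes come with only 50 to 211 cells per library, and the members' counts are read no further.

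Microglia-like cells, the resident immune cells of the brain, had 243, 468, 499 and 104 CPM. The ratios were 1.93 (1.56 to 2.42), 2.06 (1.65 to 2.59) and 0.43 (0.32 to 0.58), so day 7 lay below sham. When cells of up to 6000 genes were kept, the day 1 ratio was 1.06. Without a UMI of the endothelial markers, which left 42 to 237 cells per library, the levels were 292 (208 to 399.8), 401 (362 to 443), 339 (287 to 397) and 134 CPM (101 to 175), and with such a UMI 216, 537, 599 and 77.9 CPM. In the marker-free cells the intervals of sham and of days 1 and 3 overlapped, and day 7 was below sham in both sets of cells. The part of endothelial transcripts in these values was not tested. Members past 2-fold were Hspa1b higher and Dnajb1 lower at day 1, Hspa1b higher at day 3, and Hspa1b and Dnajb1 lower at day 7, beside 18.7%, 5.6% and 5.55% of all genes.

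The remaining classes had at least 50 cells in some libraries only. Neuron-like cells had 134 CPM in sham and 80.4 CPM at day 1, a ratio of 0.60 (0.39 to 0.94), so the direction was opposite to that in vascular and glial cells. At day 1, the level was 501 CPM in fibroblast-like cells, 449 CPM in border macrophage-like cells, 409.5 CPM in oligodendrocyte progenitor-like cells, 296 CPM in ependymal-like cells and 25.8 CPM in neuroblast-like cells. Neuroblast-like cells, which are migrating immature neurons, were the lowest of 13 classes on that day. Choroid plexus-like cells had 7.68 CPM in sham (2 UMIs), 130.4 CPM at day 1 and 24.1 CPM at day 7. At day 3, neutrophil-like cells had 15.8 CPM, and at day 7 T or NK-like cells had 3.15 CPM, from 1 UMI.

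Erythrocyte-like cells, which in mice carry no nucleus, had 47.4 CPM in sham, 406 CPM at day 3 and 528 CPM at day 7. At day 7 all of these UMIs were in the 48 cells that also had a UMI of an endothelial marker (669.9 CPM), and the 16 cells without one had 0 UMIs, which allows up to 84.2 CPM. At day 3 the levels with and without endothelial markers were 471 and 233 CPM, and in sham 43.7 CPM (26.3 to 68.3) and 53.99 CPM (28.7 to 92.3). The erythrocyte-like values of days 3 and 7 thus moved with endothelial transcripts and those of sham did not, and the part of these transcripts in the result was not tested.

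The order of classes by Hspa1a and Hspa1b level changed between libraries. In sham, pericyte-like cells led, followed by endothelial-like cells, then microglia-like and vascular smooth muscle-like cells, whose intervals overlapped. At days 1 and 3 endothelial-like cells led, followed by pericyte-like cells. At day 7 pericyte-like cells led again, and the interval of erythrocyte-like cells (433 to 637 CPM) overlapped those of pericyte-like and endothelial-like cells. At day 1 fibroblast-like, microglia-like, border macrophage-like and oligodendrocyte progenitor-like cells had neighbouring intervals that overlapped.

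Within the sum, Hspa1b differed more between libraries than Hspa1a. In endothelial-like cells Hspa1a was at 266, 1375, 1472 and 346 CPM in sham and at days 1, 3 and 7. Hspa1b was at 85.5, 996, 1024 and 87.7 CPM, which is 11.6 (11.02 to 12.3), 11.98 (11.3 to 12.7) and 1.03 times sham, against 5.16, 5.52 and 1.30 times for Hspa1a. Hspa1b was thus back at its sham level at day 7, whereas Hspa1a was above it. Its share of the summed UMIs in these cells was 24.3% in sham, 42.0% at day 1, 41.0% at day 3 and 20.2% at day 7.

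The same was seen in other classes. The Hspa1b share in pericyte-like cells was 16.1% in sham, 28.4% at day 1, 35.2% at day 3 and 15.1% at day 7. In oligodendrocyte-like cells it was 28.0%, 42.2%, 44.9% and 50.9%, so the day 7 share did not return to that of sham. Hspa1b was at 13.7, 262, 109.99 and 32.8 CPM in these cells and Hspa1a at 35.3, 359, 135 and 31.6 CPM, which left Hspa1a at or under its sham level at day 7. In vascular smooth muscle-like cells the Hspa1b share stayed between 17.4% and 23.0%. Pericyte-like Hspa1a was at 859.9, 1146, 1438 and 507 CPM and Hspa1b at 165, 454, 782 and 90.5 CPM, the Hspa1b ratio at day 3 being 4.75 and number 1 of 7588 genes. The coding sequences of both genes matched at 1918 bases (99.4%), but in the last 500 bases of their transcripts, where 3′ reads fall, none of 410 stretches of 91 bases of either gene occurred in the other.

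At the level of single cells, the days differed in how many cells carried Hspa1a or Hspa1b. After thinning every cell to 1000 UMIs, 11.4% of endothelial-like cells had such a UMI in sham (10.4% to 12.4%, 4125 cells), 45.02% at day 1 (43.7% to 46.4%, 5095 cells), 32.5% at day 3 (31.1% to 33.8%, 4867 cells) and 14.8% at day 7 (14.0% to 15.6%, 7413 cells). Without thinning, the shares in the same cells were 24.8%, 55.6%, 42.8% and 26.0%. Cells under 1000 UMIs were left out, 566, 1578, 685 and 1539 in number. Day 1 thus had the most carrying cells. In these thinned cells it also had more Hspa1a and Hspa1b UMIs, 11219 against 8013 at day 3. The higher CPM of day 3 was that over all UMIs of the class, to which deeper cells add more.

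The amounts per cell were uneven. Cells with over 5 of 1000 UMIs from the pair were 0.679% of endothelial-like cells in sham, 13.6% at day 1, 10.5% at day 3 and 1.11% at day 7. The highest cell had 20, 35, 49 and 31 UMIs. The tenth of cells with the most UMIs held 94.3%, 55.5%, 69.1% and 85.7% of all of them. Most endothelial-like cells of days 1 and 3 had 0 UMIs after thinning, which at this depth does not show that the genes were off in them.

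In oligodendrocyte-like cells the thinned shares were 4.59% in sham, 24.5% at day 1, 15.3% at day 3 and 6.30% at day 7. In pericyte-like cells they were 33.5%, 25.1%, 26.3% and 20.5%. The share of carrying cells was thus highest in sham, although the level in CPM was higher at days 1 and 3. The UMIs of this class were concentrated in few cells, the tenth of cells with the most holding 61.8%, 84.9%, 89.1% and 79.6% of them and the highest cell having 12, 40, 38 and 14. The classes with the lowest Hspa1a and Hspa1b level had 0.926% of cells with a UMI at this depth (neuroblast-like cells, day 1), 0 of 51 cells (neutrophil-like cells, day 3, up to 6.98%) and 0 of 66 cells (T or NK-like cells, day 7, up to 5.44%), and since they are the lowest, nothing is read from other classes lying above them. For comparison, erythrocyte-like cells, which should make little of these transcripts, had a UMI in 1 of 81 thinned cells in sham (0.0313% to 6.69%), 8 of 50 at day 3 (7.17% to 29.1%) and 2 of 52 at day 7 (0.469% to 13.2%), with median depths of 8034, 7505 and 1679.5 UMIs before thinning. Of all cells of this class, 60.2%, 75.0% and 75.0% in these libraries had an endothelial marker UMI, so their shares are not a background of free RNA alone. The endothelial-like shares lay above these intervals in the 3 libraries. Those of oligodendrocyte-like cells lay within them, and day 1 had too few erythrocyte-like cells for a value. Because erythrocyte-like cells carried endothelial transcripts, neither class is read as above or at background from this comparison.

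The level varied with the depth of the cell. In endothelial-like cells of under 1000 UMIs, Hspa1a and Hspa1b were at 56.1 CPM in sham, 104 at day 1, 128 at day 3 and 116 at day 7. Between 1000 and 2000 UMIs they were at 28.5, 979, 176 and 156 CPM, between 2000 and 4000 UMIs at 129, 3419.6, 1374 and 409 CPM, and between 4000 and 8000 UMIs at 486, 2596, 4131 and 622 CPM. Day 1 was highest in cells of 1000 to 4000 UMIs, and day 3 in cells of 4000 UMIs or more. The order of days 1 and 3 in endothelial-like cells therefore depended on which cells were compared, and median depth was 2875, 1845, 2191 and 1980.5 UMIs in the 4 libraries. In oligodendrocyte-like cells of 4000 to 8000 UMIs, the levels were 44.0, 668, 241 and 61.4 CPM, and day 1 was highest, as it was in cells of 8000 UMIs or more (624 CPM, against 232 CPM at day 3). In cells of 2000 to 4000 UMIs the intervals of day 1 (376 to 437 CPM) and day 3 (288 to 457 CPM) overlapped.

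**Figure D2:**
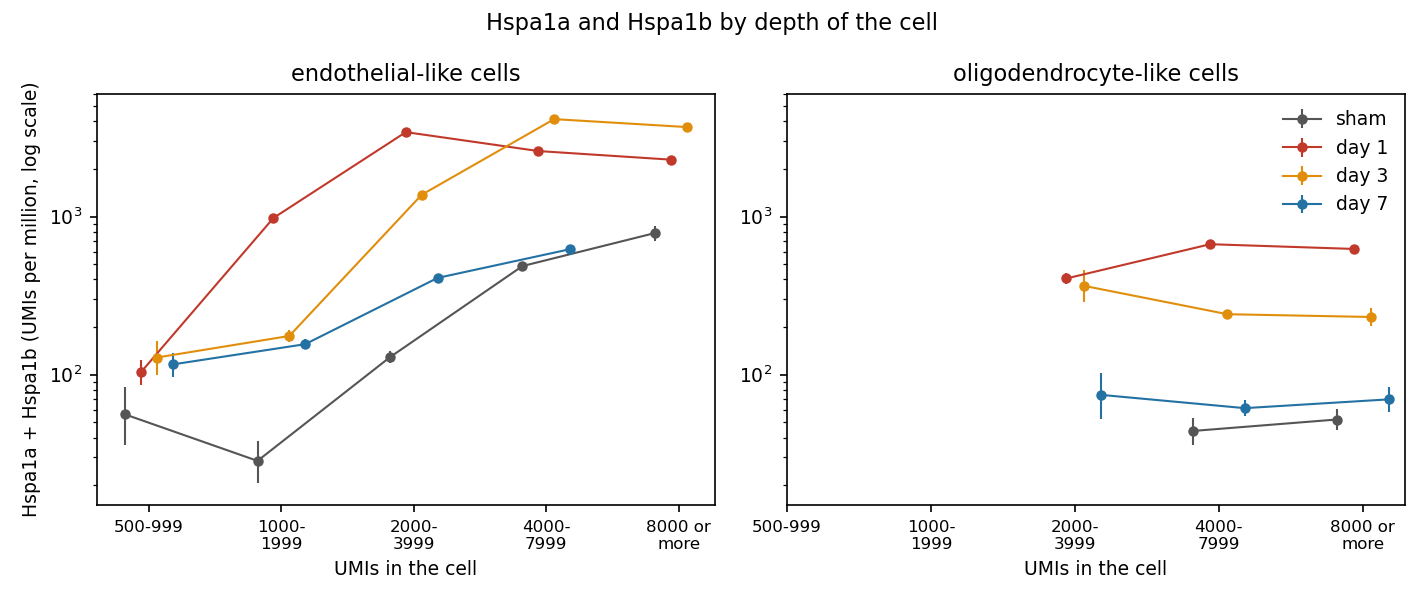
Summed Hspa1a and Hspa1b level (CPM, log axis) of endothelial-like and oligodendrocyte-like cells grouped by their UMIs, 1 line per library, with exact 95% Poisson intervals and groups under 50 cells left out. In endothelial-like cells the day 1 line peaks at 2000 to 4000 UMIs and the day 3 line at 4000 to 8000 UMIs, where day 3 stands at 4131 CPM and day 1 at 2596 CPM.

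The mitochondrial share also moved with the level. In endothelial-like cells with under 2% mitochondrial UMIs, Hspa1a and Hspa1b were at 517, 2499.8, 3206 and 477 CPM, and with 5% to 10% at 82.5, 619, 629 and 169 CPM. Days 1 and 3 were above sham and day 7 in each range. The part of depth and of RNA quality in these levels was not tested.

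Hspa8 (chr9:40800984-40810087, forward strand), the constitutive cytosolic HSP70, had small ratios. In endothelial-like cells it was at 1145, 1169, 1643 and 839.6 CPM in sham and at days 1, 3 and 7, with ratios of 1.02, 1.44 and 0.73. Day 3 was the highest library in oligodendrocyte-like cells too (1340.4, 1241, 2002 and 1402 CPM), and in microglia-like cells (879, 1162, 1461 and 934 CPM). Pericyte-like, vascular smooth muscle-like and astrocyte-like cells also had their highest level at day 3, with ratios of 1.30, 1.53 and 1.57. The constitutive gene thus had its highest value at day 3 in all 6 of these classes, by well under 2-fold. Snord14c, Snord14d and Snord14e lie within Hspa8 on the same strand.

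Hsp90aa1 (chr12:110690605-110702728, reverse strand), which encodes the inducible form of cytosolic HSP90, differed by under 2-fold between libraries in endothelial-like and oligodendrocyte-like cells. Endothelial-like cells had 242, 219, 277 and 256 CPM, and oligodendrocyte-like cells 1987, 1492, 2088 and 2163 CPM. The ratios in oligodendrocyte-like cells were 0.75, 1.05 and 1.09. The highest level was 3242 CPM, in ependymal-like cells of day 1, which carry cilia on the ventricle wall. Neuron-like cells had 1286 CPM in sham and 794 CPM at day 1, and choroid plexus-like cells 952 CPM in sham, 450.3 CPM at day 1 and 883 CPM at day 7. Endothelial-like cells had the lowest level of the classes measured at day 1 and at day 7. Their interval overlapped that of border macrophage-like cells at day 1 and those of T or NK-like and astrocyte-like cells at day 7.

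Hsph1 (chr5:149614287-149636376, reverse strand) encodes HSP105, an HSP110 family exchange factor for HSP70. In endothelial-like cells it was at 25.5, 23.4, 36.7 and 18.7 CPM, with ratios of 0.92, 1.44 and 0.73. In oligodendrocyte-like cells it was at 42.1, 72.2, 71.7 and 96.1 CPM, with ratios of 1.71, 1.70 and 2.28 (1.96 to 2.66). Oligodendrocyte-like cells thus had their highest Hsph1 level at day 7, the tMCAO library in which their Hspa1a and Hspa1b were lowest. Ependymal-like cells of day 1 again had the highest level, 272 CPM, and neuron-like cells had 98.6 CPM in sham and 144 CPM at day 1.

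Dnajb1 (chr8:83608193-83612653, forward strand) encodes a J-domain protein, HSP40, that hands clients to HSP70. In endothelial-like cells it was at 90.8, 135, 139 and 63.4 CPM, with ratios of 1.49 (1.39 to 1.59), 1.54 and 0.70. In oligodendrocyte-like cells it was at 51.6, 257, 67.4 and 31.8 CPM, and the day 1 ratio was 4.98 (4.41 to 5.64). Day 1 stood alone in that class, since day 3 was 1.31 times and day 7 0.62 times sham. In microglia-like cells it was at 133, 39.8, 202 and 46.9 CPM, so that days 1 and 7 lay below sham, at 0.30 (0.21 to 0.44) and 0.35 (0.23 to 0.54) times its level, and day 3 above, at 1.52 times. Astrocyte-like cells had 102 CPM at day 3, which was 5.45 (1.90 to 21.4) times sham, where only 4 UMIs were counted. Of its 27 UMIs at day 3, 25 were in the 37 cells with an endothelial marker UMI (166 CPM) and 2 in the 40 cells without one (17.6 CPM, against 12.2 CPM in such sham cells), so the difference moved with endothelial transcripts, whose part was not tested.

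Immediate-early genes are induced within minutes by many stimuli and also by tissue digestion. In microglia-like cells their sum was well below sham at day 1, as Dnajb1 was. At day 3 the sum was below sham and Dnajb1 above it, and at day 7 Dnajb1 was much further below sham than the sum. The 13 genes of this list summed to 43083 CPM in sham, 12262 at day 1, 26584 at day 3 and 38157 at day 7, and 10 of the 13 were lower past 2-fold at day 1 and 1 higher, beside 18.7% of all genes in either direction. In endothelial-like cells the sum was 15876, 15664, 13278 and 19569.5 CPM, and 2, 1 and 2 of 13 were higher past 2-fold, beside 2.79%, 2.09% and 1.02% of all genes in either direction. The sum in endothelial-like cells was thus lowest at day 3, where Hspa1a and Hspa1b were highest, and highest at day 7, where they were near sham. In pericyte-like cells it was 12338, 6812, 4290.1 and 7425 CPM, so the library with the highest Hspa1a and Hspa1b again had the lowest sum. Other classes went another way. In oligodendrocyte-like cells the sum was 5368, 6303, 3654 and 6109.9 CPM, highest at day 1 as Hspa1a and Hspa1b were, and in vascular smooth muscle-like cells 18746, 19148, 19936 and 25042 CPM, lowest in sham as they were. Its part in the heat shock levels was not tested.

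Hspb1 (chr5:135887919-135889563, forward strand) encodes HSP27, a small heat shock protein that binds unfolded clients and actin. Endothelial-like cells had its highest level in every library, although at day 7 the interval of vascular smooth muscle-like cells (2237 to 2304 CPM) overlapped theirs (2262 to 2302 CPM). Endothelial-like cells had 2549, 3256, 3096 and 2282 CPM, vascular smooth muscle-like cells 2229, 2484, 2559.6 and 2269.9 CPM, and pericyte-like cells 1097, 1087, 1873 and 816 CPM. Ratios in endothelial-like cells were 1.28, 1.21 and 0.90, and the day 3 ratio in pericyte-like cells was 1.71. Oligodendrocyte-like cells had 16.6, 80.0, 36.3 and 20.2 CPM, with ratios of 4.82 (3.89 to 6.03), 2.19 and 1.22. With 10 CPM added to both levels, the day 3 ratio did not pass 2-fold. The class with the lowest sham level thus had the steepest day 1 ratio of these 4 classes.

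The low Hspb1 of oligodendrocyte-like cells was 0.651% of the endothelial-like level in sham and 2.46% at day 1, and in cells with no endothelial marker UMI it was 14.7 (10.5 to 19.9), 71.9 (65.9 to 78.2), 20.5 (15.03 to 27.2) and 15.7 CPM (11.9 to 20.3) in sham and at days 1, 3 and 7. In these cells day 1 was also above sham, whereas at day 3 the interval overlapped that of sham. What part endothelial transcripts had in these values was not tested. Astrocyte-like cells had 197, 781, 41.6 and 262 CPM. At day 1 their level was 1528 CPM in the 76 cells with an endothelial marker UMI and 121 CPM in the 135 cells without one, so it moved with endothelial transcripts, whose part was not tested.

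**Figure D3:**
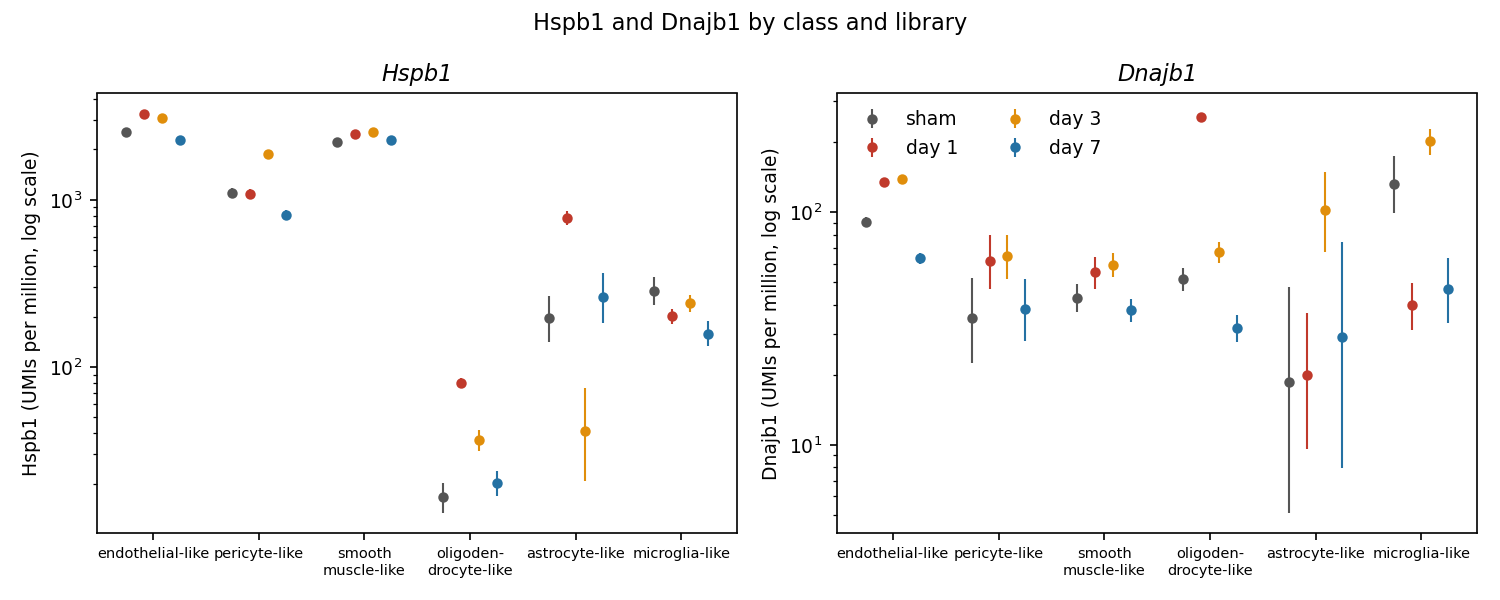
Hspb1 and Dnajb1 levels (CPM, log axis) in 6 classes and 4 libraries, with exact 95% Poisson intervals. Hspb1 lies above 2000 CPM in endothelial-like cells in all 4 libraries, and Dnajb1 is highest in oligodendrocyte-like cells of day 1 (257 CPM).

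Hspd1 (chr1:55077835-55088243, reverse strand) and Hspe1 (chr1:55088132-55091307, forward strand) encode HSP60 and HSP10, which form the folding chamber of mitochondria. The genes overlap at their shared start and have 5 and 6 pseudogenes of the same name, so their counts are uncertain to that extent. Hspd1 in endothelial-like cells was at 93.4, 75.3, 95.5 and 92.3 CPM, and Hspe1 at 104, 139.6, 149.5 and 90.7 CPM. Oligodendrocyte-like cells had 152, 161, 210.1 and 193 CPM of Hspd1 and 230.5, 286, 315 and 204 CPM of Hspe1. Neither gene passed 2-fold in these 2 classes. In microglia-like cells Hspe1 was at 149, 299, 253 and 222 CPM, with a day 1 ratio of 2.01 (1.53 to 2.69), which with 10 CPM added to both levels did not pass 2-fold.

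Hspa5 (chr2:34771970-34777547, forward strand) encodes BiP, the HSP70 of the endoplasmic reticulum. Endothelial-like cells had 299.8, 251, 434 and 325 CPM, with ratios of 0.84, 1.45 and 1.08. Microglia-like cells had 1171, 898, 881 and 739.9 CPM, all tMCAO libraries being below sham. Theirs was the highest level of any class in sham and at days 1 and 3. In sham their interval (1065 to 1284 CPM) overlapped that of choroid plexus-like cells (992 to 1253 CPM). Oligodendrocyte-like cells had 197, 289, 309.8 and 306 CPM, with ratios of 1.47, 1.57 and 1.56. The member of the endoplasmic reticulum thus stayed within 2-fold of sham in all 3 of these classes.

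**Figure D4:**
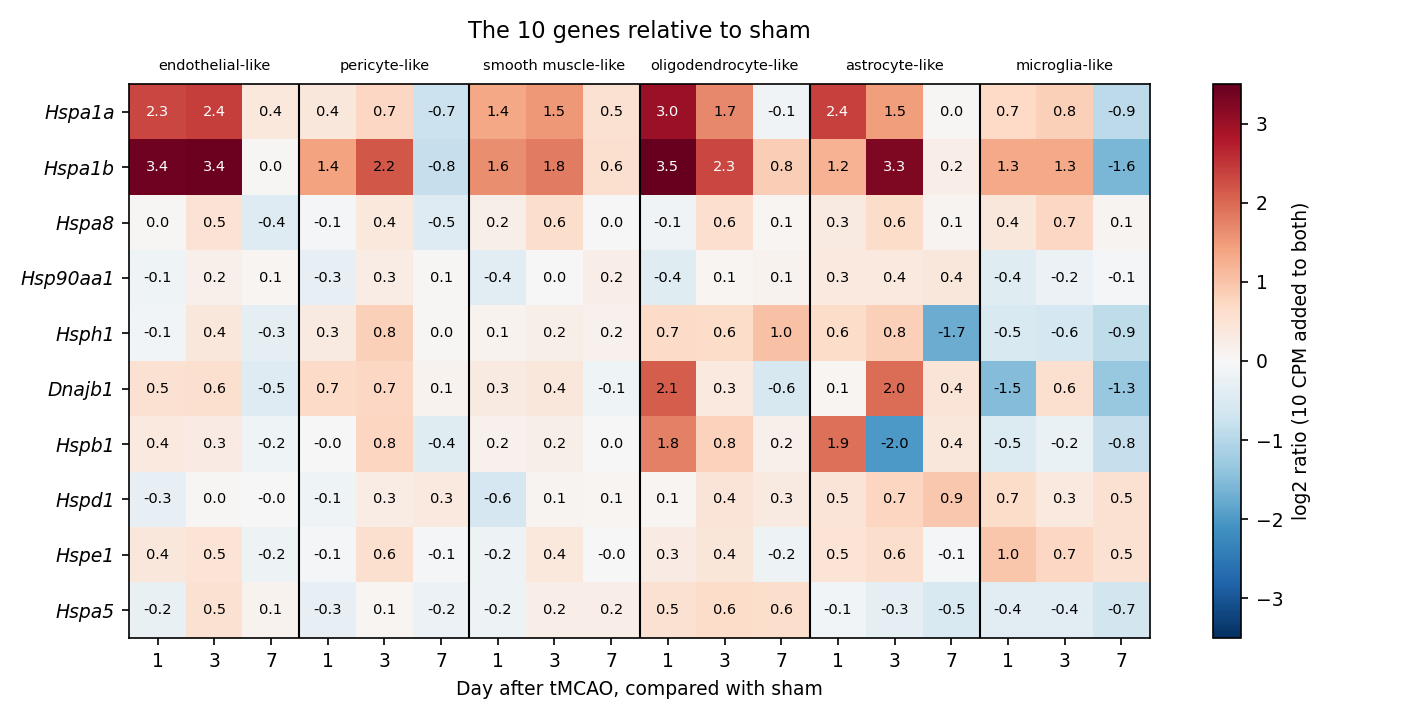
Ratio of each day to sham (log2, 10 CPM added to both levels) for the 10 members in 6 classes, as a heat map with a colour bar. Both Hspa1a and Hspa1b are past 2-fold at days 1 and 3 in endothelial-like, vascular smooth muscle-like, oligodendrocyte-like and astrocyte-like cells. In pericyte-like and microglia-like cells only Hspa1b of the 2 is. The astrocyte-like values rest on few sham UMIs. The other members in endothelial-like cells lie between -0.46 (Dnajb1 at day 7) and 0.57 (Dnajb1 at day 3).

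Members were then compared between cells of the same library, by splitting the thinned cells into those with and without a UMI of Hspa1a or Hspa1b. In endothelial-like cells, Hspb1 was 2.16, 3.61, 3.24 and 2.03 times higher in the cells with one, in sham and at days 1, 3 and 7, and Dnajb1 1.57, 3.33, 3.61 and 1.77 times higher. Over all depths, both ratios were larger at days 1 and 3 than in sham or at day 7. Ratios of Hspa8 ran from 1.19 to 1.38, those of Hsp90aa1 from 1.32 to 1.54 and those of Hspa5 from 1.02 to 1.25. Those of Hspe1 ran from 1.32 to 1.83, with the highest in sham (1.41 to 2.36), above Dnajb1 in that library, those of Hspd1 from 1.06 to 1.40 and those of Hsph1 from 0.897 to 1.55. Cells with a UMI were deeper before thinning, with medians of 5353, 3216.5, 4530.0 and 3704.5 UMIs against 3050.0, 1739, 1983 and 2194. Among cells of 4000 to 8000 UMIs, the ratios were 1.43, 2.36, 2.56 and 1.44 for Hspb1 and 1.11, 2.29, 2.67 and 1.35 for Dnajb1. Within that depth range the Hspb1 values of days 1 and 3 lay above those of sham and day 7, and the Dnajb1 intervals of day 1 overlapped those of sham and day 7, as did those of days 3 and 7. Among cells of 2000 to 4000 UMIs, Hspb1 was at 2.11, 3.26, 2.35 and 1.77 and Dnajb1 at 1.68, 3.06, 2.28 and 1.51. Among cells of 1000 to 2000 UMIs, Hspb1 was at 4.14, 2.05 and 2.48 at days 1, 3 and 7 and Dnajb1 at 2.59, 1.46 and 1.92, too few sham cells being available. For Hspb1 day 1 thus stood above day 7 in each range, and day 3 did so only in cells of 2000 to 8000 UMIs.

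In oligodendrocyte-like cells of day 1, Dnajb1 was 4.98 (4.18 to 5.94) times and Hspb1 3.97 (2.92 to 5.43) times as high in the 537 cells with an Hspa1a or Hspa1b UMI as in the 1655 without. The ratios were 1.57 for Hsph1, 1.28 for Hsp90aa1, 1.14 for Hspa8 and 0.96 for Hspa5. At day 1 the cells of this class with Hspa1a or Hspa1b thus also had more of Dnajb1 and Hspb1. They had about the same amount of the constitutive and endoplasmic reticulum members. Median depth was 5106 and 4787 UMIs in the 2 sets of cells, and among cells of 4000 to 8000 UMIs the ratios were 5.06 for Dnajb1 and 3.05 for Hspb1.

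**Figure D5:**
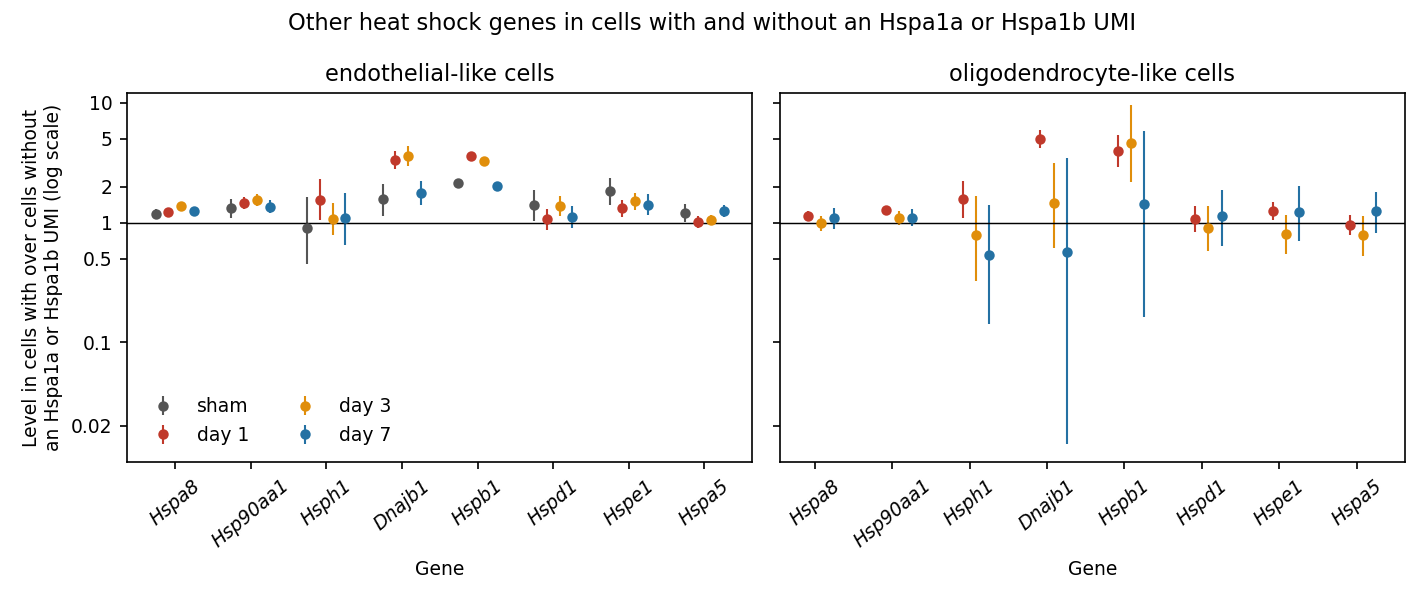
Level of each other member in cells with an Hspa1a or Hspa1b UMI over its level in cells without one (vertical log axis), after thinning to 1000 UMIs, in endothelial-like cells of the 4 libraries and oligodendrocyte-like cells of the tMCAO libraries, with exact 95% intervals for counting error. Hspb1 and Dnajb1 stand highest, at 3.24 to 3.61 in endothelial-like cells of days 1 and 3, and the oligodendrocyte-like intervals of days 3 and 7 are wide.

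Over the 39 combinations of class and library with at least 50 cells, the Hspa1a and Hspa1b sum followed Hspb1 most among the members (Pearson r of 0.65 on the log2 scale), then Dnajb1 (0.46) and Hspa8 (0.25), and Hsp90aa1 not at all (-0.09). Hspd1 and Hspe1 followed each other (0.84), as did Hsp90aa1 and Hsph1 (0.81). Among 10424 genes, the 5 with the pattern most like that of the Hspa1a and Hspa1b sum were BC028528 (0.81), Tspan4 (0.76), Cd151 (0.73), Cp (0.73) and Hrct1 (0.72). These correlations describe points that share libraries, depth and class composition, and no p is given.

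Other chaperone genes were counted as lists, to place the members in their pathway. In endothelial-like cells at day 1, 1 of 24 measured cytosolic chaperones and co-chaperones was higher past 2-fold and 0 were lower, near the 2.79% of all genes that were past 2-fold. This gene was Fkbp5, a co-chaperone of steroid receptors and a target of glucocorticoids, at 2.73 CPM in sham and 27.7 CPM at day 1 (10.2 times, 7.42 to 14.2). The median log2 ratio of this list was -0.22 at day 1, beside 0.19 for the 10 members and -0.08 for all genes. Chordc1, Fkbp4 and Dnaja1, which work with HSP90 and HSP70, were at 0.61, 0.61 and 0.65 times sham. At days 3 and 7, 0 of 23 genes of this list passed 2-fold.

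For the lists that follow, the share of all genes past 2-fold in endothelial-like cells was 2.79%, 2.09% and 1.02% at days 1, 3 and 7, so that in lists this short a count of 0 is near that share and is not read as a result. Of the heat shock transcription factor list, 3 genes were measured and 0 passed 2-fold on any day, with day 1 ratios of 0.59 for Hsf1, 1.30 for Hsf2 and 1.07 for Hsbp1, which encodes a protein that binds heat shock factor 1 and is not itself such a factor. The 7 subunits of the cytosolic folding ring TRiC, the 8 mitochondrial chaperones and proteases measured at day 1 and the 3 ubiquitin genes also had 0 past 2-fold at day 1. Of 20 chaperones and unfolded protein response genes of the endoplasmic reticulum, 0 passed at day 1, where Hsp90b1, P4hb, Sel1l and Sdf2l1 were at 0.74, 1.38, 0.73 and 1.78 times sham, and 1 passed at day 3, Sdf2l1 at 2.43 times. Hmox1, which encodes the heme-degrading enzyme heme oxygenase 1, was the 1 of 3 oxidative stress genes past 2-fold at day 1, with 14.0 CPM in sham and 43.1 CPM at day 1. Among immediate-early genes, Ier3 was at 2.47, Nr4a1 at 2.21, Egr1 at 1.64 and Jun at 0.68 times sham on that day.

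In oligodendrocyte-like cells at day 1, Fkbp5 was again the 1 of 23 cytosolic chaperones that was higher past 2-fold, at 17.9 (10.9 to 31.5) times sham, beside 2.12% of all genes past 2-fold in either direction. The 1 that was lower was Cryab, a small heat shock protein related to Hspb1 and named here after its values were seen, at 8010.3 CPM in sham and 3943 CPM at day 1 (0.49 times). Both small heat shock genes thus went in opposite directions in this class, Hspb1 being 4.82 times sham. Of 12 measured immediate-early genes, 4 were higher past 2-fold (Junb, Atf3, Nr4a1 and Zfp36, of which all but Nr4a1 are named after their values were seen) and 0 lower, and their part in the Hspa1a, Hspa1b and Dnajb1 levels of these cells was not tested.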

How the data were processed

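UMI counts per gene and cell were deposited by the authors for 4 single-cell libraries, without normalization. The file header names Cell Ranger 4.0.0, whereas the submitters' processing notes list Cell Ranger 3.0.1, Seurat 4.1.2 and GRCh38. The identifiers were mouse, and 99.9% of the 31053 matched GENCODE vM21 (GRCm38), which gave the coordinates. Depth was 69392755 to 104023002 UMIs per library. Members and lists were chosen with earlier results of these data known.

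Kept cells had 200 to 3000 genes and at most 10% mitochondrial UMIs. A cell was given the class with the highest mean marker score if 2 or more of that class's markers were detected and the score was 2 or more times the next. Classes of at least 50 cells per library were used. CPM, ratios (exact conditional 95% intervals), shares after thinning to 1000 UMIs (exact binomial intervals) and log2 ratios with 10 CPM added were computed with numpy 2.4.6, pandas 2.3.3, scipy 1.17.1 and scanpy 1.11.5, and checked on simulated data. Intervals cover counting error only. Lists counted genes of at least 20 CPM in either library. A gene was counted past 2-fold from the log2 ratio with 10 CPM added, without a test.

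Named genes were the members, the 4 genes of each other list with the largest absolute log2 ratio of day 1 over sham in endothelial-like cells, and the 5 genes most like the Hspa1a and Hspa1b sum among genes of at least 50 CPM in a group. Names outside this rule are given as chosen after their values were seen. Scrublet's automatic threshold marked 17, 617, 3 and 2 cells in sham and at days 1, 3 and 7 and did not work in sham and at days 3 and 7, so doublets were kept, and leaving out the highest 5% of scores was an alternative. The bulk and protein experiments of the study were not analysed here.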

Additional observations from a re-analysis of the deposited data

Results flagged for a closer look

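Dnajb1 at day 1 went in opposite directions in different classes. It was 4.98 times its sham level in oligodendrocyte-like cells and 0.30 times in microglia-like cells, and this difference was not tested, since each day was 1 library.

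Cells of over 3000 genes, which the stated limit leaves out, also held Hspa1a and Hspa1b. Their summed level was 528 CPM at day 1, 996 CPM at day 3 and 338 CPM at day 7, all above the 209.8 CPM of the sham library. These cells numbered 2856 in sham and 1964 to 3452 in the tMCAO libraries.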

How the results depend on the processing

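No paired analysis was possible because each group was 1 library, and for the same reason no library could be left out. Over all cells, the Hspa1a and Hspa1b ratios of days 1, 3 and 7 (4.51, 5.57 and 1.25) were 3.30, 4.99 and 1.35 with cells of up to 6000 genes, 4.67, 5.71 and 1.29 without the highest 5% of Scrublet scores, and 5.13, 5.28 and 1.31 with cells weighted equally. For days 1 and 3 they were 4.14 and 4.94 with at most 5% mitochondrial UMIs, and 4.36 and 5.41 without mitochondrial, haemoglobin, Gm42418 and AY036118 UMIs. In endothelial-like cells (6.74, 7.09 and 1.23), they were 5.12, 6.49 and 1.31 with up to 6000 genes and 7.58, 6.57 and 1.36 with equal weights, and day 3 was 6.69 with at most 5% mitochondrial UMIs. Equal weights placed day 3 below day 1. The cause was not tested. The counts of members past 2-fold in endothelial-like cells were the same under every alternative run.

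Shares of endothelial-like cells with an Hspa1a or Hspa1b UMI were 6.18%, 28.5%, 22.8% and 8.61% at 500 UMIs, and 22.2%, 43.7%, 38.4% and 22.5% without thinning in all cells, those under 1000 UMIs included. Of 107 values in other classes, 84 stayed within their counting interval, 22 moved, and 1 turned, the day 7 ratio of vascular smooth muscle-like cells, 0.989 with at most 5% mitochondrial UMIs. Under that limit the day 1 and day 3 ratios of this class were also much lower, as given with its levels. Oligodendrocyte-like ratios without endothelial marker UMIs, an alternative chosen after seeing the data, were 18.9, 6.83 and 1.89. The stricter assignment gave no astrocyte-like value, for lack of cells or sham UMIs. Counting limits the astrocyte-like values, which rest on 4 sham UMIs.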
